A study of Macaca mulatta with 6 samples.

Results

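Bulk RNA sequencing of rhesus monkey cultures, which the study describes as cultured spermatogonial stem cells (SSCs), was examined for genes of the Notch pathway. These were the receptors NOTCH1, NOTCH2 and NOTCH3, the ligands JAG1, JAG2 and DLL4, and the target genes HES1, HEY1, HEY2 and HEYL. The genes were chosen by name, and 7 of the 10 were analysed among 17795 genes listed; HES1, HEY2 and HEYL were not analysed here. The libraries are labelled PDGF (3 libraries, here called PDGF-treated) and PDGFNO (3 libraries, here called PDGF-free after the study's culture comparison), with testis as the tissue in all 6. According to the culture methods, the cells grew as droplets of basement membrane extract in a serum-containing medium with GDNF, EGF, bFGF, LIF, Wnt3a and human platelet-derived growth factor (PDGF), and no other difference of the PDGF-free medium is described. Replicate 1 of each group is labelled batch 1, and replicates 2 and 3 are labelled batch 2. The age, genotype, donors and days in culture behind these libraries are not given in the sources used here, nor is whether replicates are separate cultures, so the p-values measure only the spread between libraries.

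Notch signaling passes between touching cells. A ligand of the Jagged or Delta-like family on 1 cell binds a Notch receptor on its neighbour, the receptor is cut by ADAM proteases and then by γ-secretase, and the freed intracellular part joins the DNA-binding protein RBPJ and a Mastermind-like coactivator to switch on target genes, of which the HES and HEY genes, encoding basic helix-loop-helix repressors, are the classical ones. In the mouse testis, undifferentiated germ cells carry JAG1 and Sertoli cells respond through NOTCH receptors, with HES1 and HEY1 acting as repressors of the niche factor GDNF. NOTCH3 and the HEY genes are also known from pericytes and smooth muscle, and DLL4 from endothelium.

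Total counts ranged from 10593805 to 14102697 per library and were higher in the PDGF-treated group. Replicates 2 and 3 of a group lay close together, where the chi-square of their counts over its degrees of freedom was 3.43 with PDGF and 3.66 without, against 47.2 to 60.2 between replicate 1 and either of them. Of the cell type marker lists, stromal fibroblast genes were the most abundant, summing to 14237 to 19339 CPM (counts relative to the TMM-normalised library size) with PDGF and 17908 to 19627 CPM without. Markers shared by germ cells summed to at most 8.43 CPM in any library, and STRA8 and the spermatogonial marker NANOS2 had no count. ID4 and ETV5 supplied most of the undifferentiated spermatogonial signal, while GFRA1 had 5 and 18 counts, and SALL4 1 and 20, over the PDGF-treated and PDGF-free libraries. ID4 itself was at 131 ± 4.22 CPM with PDGF against 163 ± 14.4 CPM without (SD, n = 3). Its log2 fold change was -0.32 (adjusted p = 0.122 by edgeR), which was not called at an adjusted p under 0.05. The listed markers shared by germ cells were thus at or near 0 and ID4 was not. Which cells carried the ID4 transcript was not tested, and the lists do not cover all germ cell transcripts. AKAP4, a sperm tail gene outside the lists, was chosen after its values were seen. Its average level over the libraries was above that of every listed marker shared by germ cells. The log2 fold change of AKAP4 was -3.19 (adjusted p = 1.06e-04 by edgeR). Levels below belong to the whole culture. In such bulk libraries, fewer cells of a type and less RNA per cell cannot be told apart.

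PDGF-treated cultures had more NOTCH1 and NOTCH2 transcript and far less HEY1 and JAG1 transcript than PDGF-free cultures. HEY1 was 7.78-fold lower and JAG1 4.84-fold lower, whereas NOTCH2 was 1.71-fold and NOTCH1 2.49-fold higher. Of the 6 genes that passed edgeR's filter on low counts, 2 were higher and 2 were lower at a Benjamini-Hochberg adjusted p under 0.05 in edgeR's quasi-likelihood test over 11539 genes, and NOTCH3 and JAG2 did not pass; DLL4 was too low to be tested. In the same test 18.3% of all genes were called, 7.61% higher and 10.7% lower with PDGF. The median log2 fold change was -0.63 over the 6 genes and 0.02 over all genes tested. In 5 of the 6 the PDGF-treated and PDGF-free libraries did not overlap, a separation found in 37.6% of all genes tested.

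**Figure D1:**
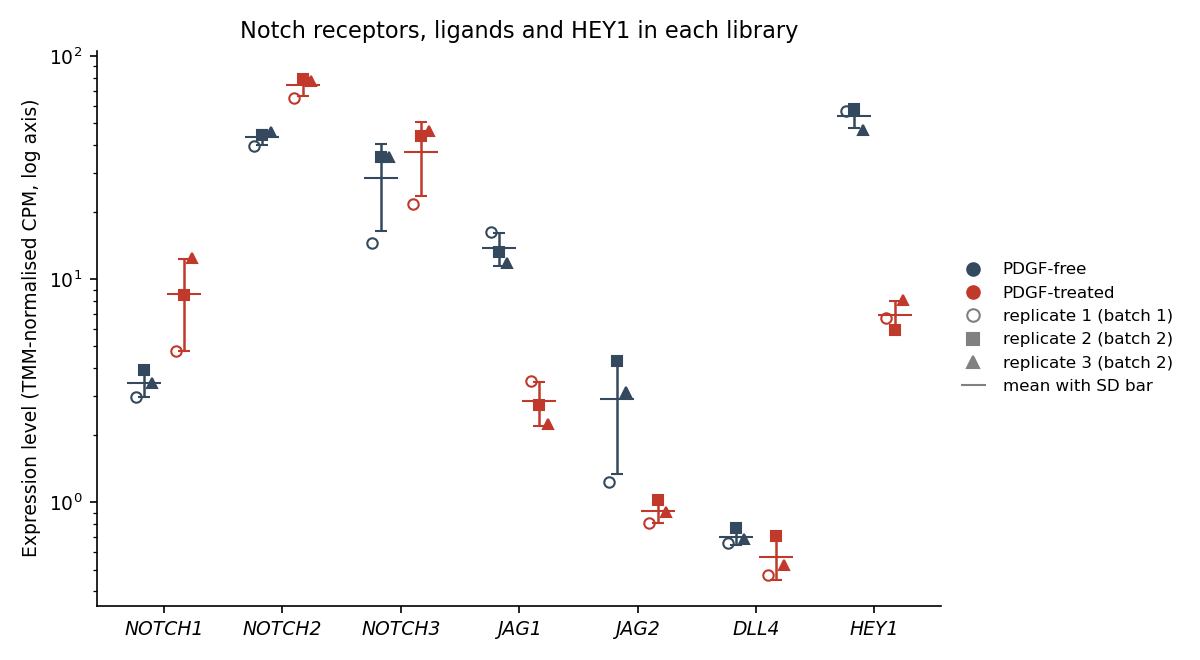
Expression level of the 7 genes in each library, in TMM-normalised CPM on a log axis; points are libraries, open for replicate 1, and the horizontal marks with bars are group means with SD (n = 3). HEY1 lies between 46.9 and 58.0 CPM without PDGF and between 5.94 and 8.11 CPM with it, and replicate 1 of NOTCH3 lies below the other 2 replicates in both groups.

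Among the receptors, NOTCH2 was the most abundant in CPM. The gene lies on chromosome 1 from 104176518 to 104366227 on the plus strand in the RefSeq annotation of Mmul_10, with 34 exons in its longest transcript. NOTCH2 was at 65.3, 79.0 and 77.7 CPM in PDGF-treated replicates 1, 2 and 3 and at 39.5, 44.3 and 45.9 CPM in the PDGF-free ones. Every PDGF-treated library was above every PDGF-free one, and the range within each group was smaller than the gap between the groups. The log2 fold change was 0.78 ± 0.15 (SE, adjusted p = 0.00967 by edgeR), with 0.73 in batch 1 and 0.80 in batch 2. Without PDGF-treated replicate 2 the edgeR adjusted p was 0.0502. After summing replicates 2 and 3 of each group, without a batch term, it was 0.149 at the same log2 fold change. With the replicate number as a block, which compares libraries of the same batch, the log2 fold change was 0.77 ± 0.07 (SE, adjusted p = 7.72e-09 by edgeR). That block fit called 60.1% of all genes tested.

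NOTCH1, on chromosome 15 from 1699397 to 1752996 on the plus strand, is the receptor best known from cell fate decisions in many tissues. Its counts were 71, 109 and 165 with PDGF and 36, 41 and 35 without, which correspond to 4.79, 8.52 and 12.4 CPM and to 2.96, 3.93 and 3.43 CPM. The PDGF-free libraries were alike, while the PDGF-treated ones were spread over a wider range, all of them above the PDGF-free group. The log2 fold change was 1.32 ± 0.36 (SE, adjusted p = 0.0401 by edgeR), and the log2 difference was 0.69 in batch 1 and 1.47 in batch 2. The call was kept when PDGF-treated replicate 1 was left out. It was lost when any other library was left out, with edgeR adjusted p of 0.0937 and 0.130 without PDGF-treated replicates 2 and 3 and of 0.0603, 0.0929 and 0.116 without PDGF-free replicates 1, 2 and 3. It was also lost with replicates 2 and 3 summed, without a batch term (adjusted p = 0.192 by edgeR). With the replicate block the call was kept, at 1.24 ± 0.25 (SE, adjusted p = 2.27e-04 by edgeR). That block fit called 60.1% of all genes tested. Of the 19 alternative settings, 8 lost the call of NOTCH1, against 2 for NOTCH2 and 0 for JAG1 and HEY1.

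NOTCH3 lies on chromosome 19 from 14761814 to 14803537 on the minus strand. Its level was 21.7, 43.9 and 46.4 CPM with PDGF and 14.6, 35.2 and 35.4 CPM without. The groups overlapped, because replicate 1 was low in both, and batch 2 exceeded batch 1 by 2.08-fold with PDGF and by 2.42-fold without. The log2 fold change was 0.39 ± 0.39 (SE, adjusted p = 0.519 by edgeR). Within batch 1 the log2 difference was 0.57 and within batch 2 it was 0.35. With the replicate number as a block, which compares libraries of the same batch, edgeR gave 0.41 ± 0.10 (SE, adjusted p = 0.0011), so NOTCH3 passed the threshold once the batches were matched; 60.1% of all genes tested did so in that fit. The pericyte and smooth muscle markers, 11 of 12 analysed and 10 tested, were mixed, with RGS5 and MCAM higher, ACTA2 and DES lower, and NDUFA4L2 at 0. Their summed level was 907 to 1241 CPM with PDGF and 1127 to 1478 CPM without, and the part of these cells in the NOTCH3 values was not tested.

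Levels of different genes were compared per kilobase of the longest annotated transcript. Per kilobase, NOTCH2 was at 5.04 ± 0.513 CPM (SD, n = 3) and NOTCH3 at 4.61 ± 1.68 CPM (SD, n = 3) with PDGF, and their libraries overlapped, as they did without PDGF at 2.94 ± 0.225 and 3.51 ± 1.48 CPM (SD, n = 3). NOTCH1 was lower, at 0.899 ± 0.399 CPM per kilobase with PDGF against 0.361 ± 0.0509 without (SD, n = 3). Over NOTCH1 to NOTCH4, receptor transcript summed to 7.69 to 12.6 CPM per kilobase in PDGF-treated libraries and to 4.87 to 8.05 in PDGF-free ones. The sum was higher with PDGF at each replicate number, but the lowest PDGF-treated library, replicate 1, lay below PDGF-free replicates 2 and 3. NOTCH1 made up 6.54 to 10.3% of this sum with PDGF and 4.47 to 6.37% without. NOTCH4, the remaining receptor, was at 1.46 ± 0.918 and 1.01 ± 0.519 CPM (SD, n = 3), with a log2 fold change of 0.54 (adjusted p = 0.613 by edgeR).

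**Figure D2:**
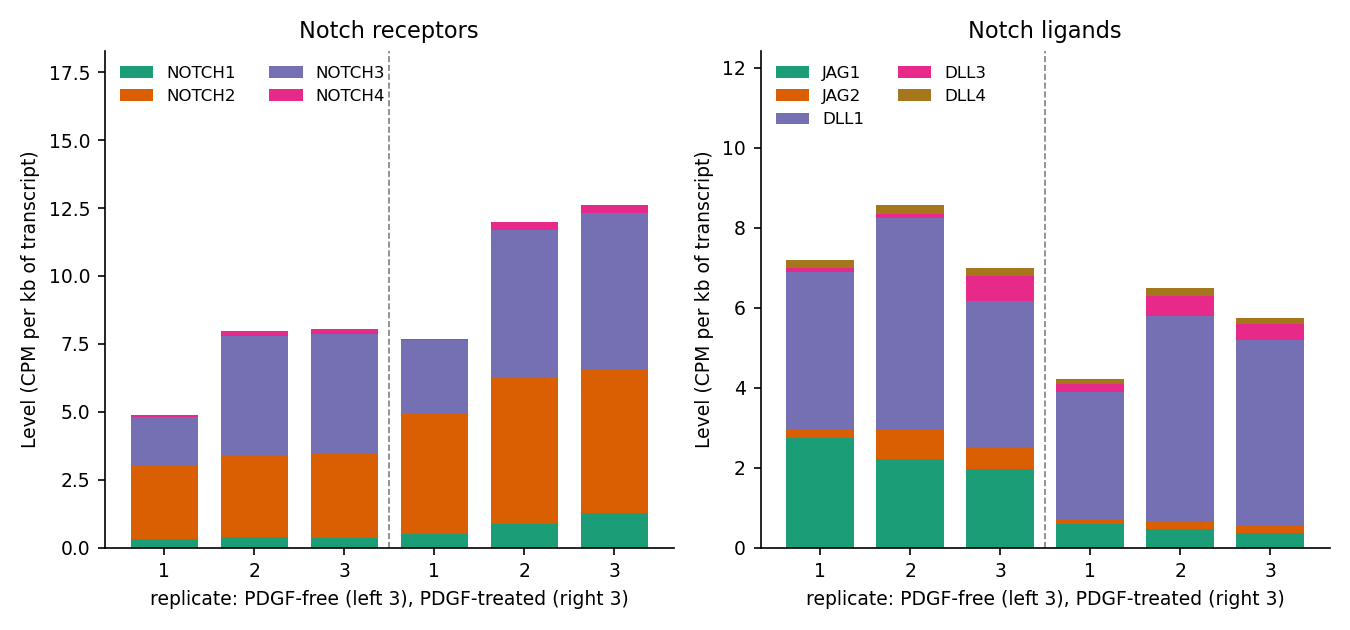
Summed transcript level of the Notch receptors (left) and of the Jagged and Delta-like ligands (right) in each library, in CPM per kilobase of transcript, stacked by gene; the dashed line separates PDGF-free (left) from PDGF-treated (right) libraries. The JAG1 part shrinks from a mean of 30.8% of the ligand sum without PDGF to 9.23% with it, and the DLL1 part is the largest in every library.

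Of the Jagged and Delta-like ligands tested, JAG1 was the 1 that passed the threshold. JAG1, on chromosome 10 from 55873166 to 55909441 on the plus strand, was counted 52, 35 and 30 times with PDGF and 199, 138 and 120 times without, or 3.51, 2.74 and 2.25 CPM against 16.3, 13.2 and 11.8 CPM. All PDGF-treated libraries were below all PDGF-free ones by a wide margin, and in both groups replicate 1 was the highest. The log2 fold change was -2.27 ± 0.25 (SE, adjusted p = 9.37e-04 by edgeR). It was -2.21 in batch 1 and -2.31 in batch 2 and kept its call under all 19 alternative settings tried, with log2 fold changes from -2.45 to -2.13. As a share of JAG1, JAG2, DLL1, DLL3 and DLL4 transcript per kilobase, JAG1 was 9.23 ± 4.12% with PDGF against 30.8 ± 6.53% without (SD, n = 3). DLL1, a Delta-like ligand outside the chosen genes, held 78.4 ± 3.31% and 56.2 ± 4.91% (SD, n = 3), while its own level differed by only 0.01 on the log2 scale (adjusted p = 0.98 by edgeR). The summed ligand level was 4.22 to 6.49 CPM per kilobase with PDGF and 6.99 to 8.56 without.

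JAG2 lies on chromosome 7 from 167447446 to 167476569 on the minus strand, and its counts were the same in every library as those of NUDT14, a nudix hydrolase gene whose nearest end lies 4898 bases away, so the reads cannot be assigned to JAG2 alone. The count was 12, 13 and 12 with PDGF and 15, 45 and 32 without, or 0.810, 1.02 and 0.902 CPM against 1.23, 4.31 and 3.14 CPM. The PDGF-treated libraries were alike and below all PDGF-free ones, of which replicate 1 was close to them. The log2 fold change was -1.65 ± 0.50 (SE, adjusted p = 0.0545 by edgeR), with -0.59 in batch 1 and -1.90 in batch 2. With the replicate number as a block it was -1.55 ± 0.46 (SE, adjusted p = 0.00628 by edgeR), and without PDGF-free replicate 1 it was -2.04 (adjusted p = 0.008 by edgeR). With all libraries and no block, JAG2 also passed with upper quartile factors (adjusted p = 0.0452 by edgeR) and in DESeq2 (adjusted p = 0.0278), so it lay close to the threshold.

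DLL4, on chromosome 7 from 17392567 to 17402397 on the plus strand, was counted 7, 9 and 7 times with PDGF and 8, 8 and 7 times without. The groups overlapped at 0.473 to 0.704 CPM and 0.657 to 0.766 CPM. Over the group totals of 23 and 23 counts, the ratio with over without PDGF was 0.802, and its exact binomial 95% interval, for counting error alone, ran from 0.430 to 1.5. A difference inside this interval was not detectable at this depth. Endothelial markers, 9 of 12 analysed and 7 tested, summed to 15.3 to 18.5 CPM with PDGF and 14.1 to 20.5 CPM without; ERG was lower with PDGF, the other 6 tested did not pass, and none of the 9 was at 0.

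HES and HEY proteins bind the class C site, and RBPJ binds a core of TGGGAA, so the 250 bases before the annotated start of each gene were searched on both strands. TGGGAA was in the window of 0 of the 7 genes and of 19.7% of 14913 protein-coding promoters, its longer form CGTGGGAA, which contains it, in 0 and 0.671%, and the E-box CACGTG in 0 and 7.1%. The C site CACGCG was in 2 of the 7, JAG2 and DLL4, and in 11.2% of all windows. GC content of the window was 48.8% for NOTCH2 and 66.8 to 84.0% for the other genes. The shares were not matched for GC content. Both sites are printed in the direction of their gene, with the motif in capitals, since they are the matches found in these genes. They are Mmul_10 sequence, chr7:167476738-167476767 on the minus strand for JAG2 and chr7:17392330-17392359 on the plus strand for DLL4, and begin their motif 186 and 225 bases before the start. A match describes the letters only, and no binding was measured.
JAG2: gcctcgccgactCACGCGgaggcgtgagcg
DLL4: tggtcacctcggCACGCGcagagctggaga

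HEY1, the target gene analysed, had the largest fold change of the 6 tested. It lies on chromosome 8 from 80219116 to 80222974 on the minus strand, with 5 exons. It was counted 99, 76 and 108 times with PDGF and 689, 605 and 479 times without, or 6.68, 5.94 and 8.11 CPM against 56.6, 58.0 and 46.9 CPM. The libraries of each group were alike, and no PDGF-treated library came near the PDGF-free level. The log2 fold change was -2.96 ± 0.19 (SE, adjusted p = 1.04e-04 by edgeR), with -3.08 in batch 1 and -2.90 in batch 2. The call was kept under all 19 alternative settings, with log2 fold changes from -3.08 to -2.85. Without PDGF, HEY1 was the highest of the 7 genes per kilobase, at 23.2 ± 2.59 CPM (SD, n = 3), with no overlap with NOTCH3, the next. With PDGF it was at 2.99 ± 0.477 CPM per kilobase (SD, n = 3), after NOTCH2 and NOTCH3, and overlapped with NOTCH3.

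Per kilobase, the order with PDGF was NOTCH2, NOTCH3, HEY1, NOTCH1, JAG1, DLL4 and JAG2, and without PDGF it was HEY1, NOTCH3, NOTCH2, JAG1, JAG2, NOTCH1 and DLL4. With PDGF the libraries of neighbours in this order overlapped except between HEY1 and NOTCH1 and between JAG1 and DLL4. Without PDGF they were separate between HEY1 and NOTCH3, between JAG1 and JAG2 and between NOTCH1 and DLL4, and overlapped elsewhere. Per kilobase of coding sequence 5 of the 7 genes kept their rank in each group, with HEY1 and NOTCH3 exchanged with PDGF and NOTCH2 and NOTCH3 exchanged without. JAG1 was thus above NOTCH1 without PDGF and overlapped with it with PDGF.

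**Figure D3:**
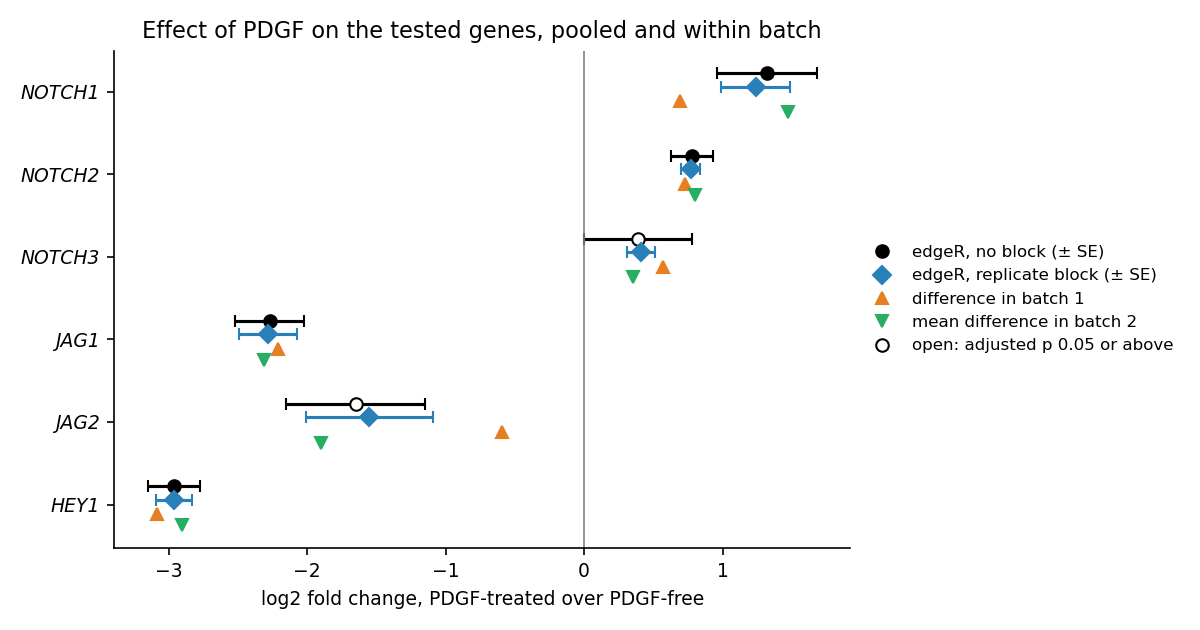
Log2 fold change of PDGF-treated over PDGF-free libraries for the 6 tested genes, from edgeR without a block (circles) and blocked on replicate number (diamonds), with bars of 1 standard error, open where the adjusted p was not under 0.05. Triangles give the log2 difference within batch 1 and batch 2; HEY1 and JAG1 lie far left in both batches, and the NOTCH1 and JAG2 triangles are the farthest apart.

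Some markers of other cells also differed between the groups, in a test that called 7.61% of all genes higher and 10.7% lower. Germ cell markers, 6 of 8 analysed and 3 tested, summed to 0.301 to 1.28 CPM with PDGF and 4.90 to 8.43 CPM without, with DDX4 and MAEL lower. Undifferentiated spermatogonial markers, 10 of 12 analysed and 4 tested, summed to 227 to 234 CPM and 259 to 333 CPM, with FGFR3 and TSPAN33 lower. Epithelial markers, 5 of 6 analysed and 4 tested, summed to 35.6 to 51.9 CPM and 87.3 to 122 CPM, with CDH1, KRT18 and PAX8 lower. Stromal fibroblast markers, 9 of 9 analysed and tested, included COL3A1, PDGFRA and POSTN as lower and none as higher at the adjusted threshold. The other 6 were not called, and the list sums overlapped at 14237 to 19339 CPM with PDGF and 17908 to 19627 CPM without. The lists for Sertoli cells, Leydig cells and macrophages overlapped between the groups. Sertoli markers (5 of 10 analysed) summed to 111 to 143 CPM with PDGF and 92.6 to 145 CPM without, mostly from GATA4 (means 127 and 116 CPM). Leydig markers (7 of 7) summed to 355 to 451 and 347 to 443 CPM. Most of that came from STAR (296 and 234 CPM) and NR5A1 (116 and 170 CPM). Macrophage markers (6 of 8) summed to 17.3 to 20.6 and 12.4 to 19.4 CPM. Over the PDGF-treated and PDGF-free libraries, FSHR had 0 and 2 counts and INSL3 0 and 1. CYP11A1 and PTPRC were at 0. HEY1 and JAG1 share their direction with every gene called lower, 10.7% of all genes tested. The germ cell, epithelial and stromal markers named here as lower share it by definition. The pericyte and smooth muscle list was mixed. DES (log2 fold change -3.27) and ACTA2 (-1.19) were lower, RGS5 (1.94) and MCAM (0.95) were higher, and 6 were not called. The part of any of these cells in the HEY1 and JAG1 values was not tested.

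For each gene above a mean of 1 CPM, the 3 named genes with the most similar profile over the 6 libraries were found among 10920 genes, by the root mean square difference of centred log2 levels. HEY1 was nearest to GTSF1L (0.156), CRISP2 and CRISP3 (0.159 each, with equal mean levels). The CRISP genes encode members of the cysteine-rich secretory protein family. Both CRISP genes were listed at 5.60 CPM with PDGF and 41.6 CPM without, with the same fold, so their reads may not be assignable to either alone. JAG1 was nearest to CDH11 (0.0935), a mesenchymal cadherin, ALDH1A1 (0.0961), a retinaldehyde dehydrogenase, and KLF11 (0.118). NOTCH2 was nearest to RDH11 (0.0108), ZDHHC5 (0.0264) and EPB41L1 (0.0329), and NOTCH1 to PHLDA2 (0.0810), TUBB2B (0.155) and ADAM19 (0.187). NOTCH3 was nearest to SMIM29 (0.0468), the collagen gene COL6A2 (0.0729) and MTSS2 (0.0759), and JAG2, beside NUDT14, to USP49 and PLEKHF1 (0.124 each).

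Outside the chosen genes, 59 of 70 listed genes of the Notch pathway were analysed and 51 were tested, of which 9 were higher and 5 were lower with PDGF, against 7.61% and 10.7% of all genes in the same fit, and their median log2 fold change was 0.19. Blocking on replicate number gave 24 higher and 12 lower, in a fit where 31.1% of all genes were higher and 29.0% lower. Some genes named below passed only with the block. DLK1, ADAM10, ADAM17, FURIN, NCSTN, EFNB2 and SNAI2 were higher with it, and LFNG and HES6 were lower. With replicates 2 and 3 summed, 10 of the 14 calls were lost in edgeR. That fit, without a batch term, called 5.78% of all genes tested, against 18.3% with all libraries separate. When single libraries were dropped, 6 of the 14 kept their call in every fit.

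Of the other receptors and ligands, 8 were tested, with 1 higher and 1 lower, against 7.61% and 10.7% of all genes. DNER, a neuronal surface protein described as a non-canonical Notch ligand, was at 24.5, 23.3 and 22.2 CPM with PDGF and 1.89, 2.20 and 2.16 CPM without. The groups were far apart, with a log2 fold change of 3.48 ± 0.20 (SE, adjusted p = 5.68e-05 by edgeR). CNTN1, an immunoglobulin-family adhesion protein also described as a Notch ligand, moved the other way, from 18.4, 17.7 and 14.3 CPM without PDGF to 1.08, 0.704 and 0.526 CPM with it. Its log2 fold change was -4.42 ± 0.30 (SE, adjusted p = 1.13e-04 by edgeR). Both kept their calls with any library left out and with replicates 2 and 3 summed. DLK1, a non-canonical ligand, had a log2 fold change of 1.09 (adjusted p = 0.151 by edgeR).

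Among genes that add sugars to the receptors or drive ligand endocytosis, 2 of 7 tested were higher and 1 was lower. EOGT, which adds N-acetylglucosamine to EGF repeats, had a log2 fold change of 1.02 ± 0.20 (SE, adjusted p = 0.0119 by edgeR). POGLUT1, which adds glucose, had one of 0.71 (adjusted p = 0.0497 by edgeR). The calls of EOGT and POGLUT1 were kept in 4 and 1 of the 6 fits with a library left out. Both were lost with replicates 2 and 3 summed. NEURL1, a ubiquitin ligase that acts on Notch ligands, was at 1.10 ± 0.139 CPM with PDGF against 5.58 ± 1.91 CPM without (SD, n = 3), a log2 fold change of -2.32 (adjusted p = 0.00421 by edgeR). LFNG, a Fringe glycosyltransferase that changes which ligands a receptor prefers, had a log2 fold change of -0.60 (adjusted p = 0.0677 by edgeR).

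Of 7 tested genes for receptor cleavage, PSEN2 was lower, and 0 were higher after adjustment in edgeR without a block, DESeq2 or limma-voom. At an unadjusted p under 0.05, 1 was higher in edgeR. Over all genes, edgeR without a block called 7.61% higher and 10.7% lower. With the replicate block 4 passed as higher, the proteases ADAM10, ADAM17 and FURIN and the γ-secretase subunit NCSTN. In that fit 31.1% of all genes tested were higher. PSEN2, a catalytic subunit of γ-secretase, was at 13.5 ± 1.21 CPM with PDGF against 40.6 ± 8.18 CPM without (SD, n = 3), a log2 fold change of -1.59 ± 0.20 (SE, adjusted p = 0.00162 by edgeR). The ADAM10 protease was at 81.1 ± 8.29 and 73.1 ± 5.81 CPM (SD, n = 3), within overlapping ranges.

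Of 17 genes of the nuclear complex and its corepressors, 3 were higher and 1 was lower, against 7.61% and 10.7% of all genes. MAML3, a Mastermind-like coactivator, was at 19.1 ± 3.82 CPM with PDGF against 7.09 ± 2.14 CPM without (SD, n = 3), a log2 fold change of 1.43 ± 0.27 (SE, adjusted p = 0.0095 by edgeR). The acetyltransferase EP300 and the corepressor SPEN had log2 fold changes of 0.57 and 0.56 (edgeR adjusted p = 0.0342 and 0.027), and their calls were kept in 1 and 2 of the 6 fits with a library left out. TLE2, a Groucho-type corepressor, had a log2 fold change of -1.20 (adjusted p = 0.00506 by edgeR). Its counts were the same in every library as those of its neighbour TLE5, so reads cannot be assigned to TLE2 alone. With replicates 2 and 3 summed, the calls of MAML3, EP300, SPEN and TLE2 were all lost. RBPJ was at 197 ± 42.5 CPM with PDGF against 186 ± 33.8 CPM without (SD, n = 3), with a log2 fold change of 0.08 (adjusted p = 0.797 by edgeR).

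Of 8 tested inhibitors and turnover genes, 3 were higher and 1 was lower, against 7.61% and 10.7% of all genes. NUMB, an endocytic adaptor that antagonises Notch, was at 220 ± 24.8 CPM with PDGF against 126 ± 23.9 CPM without (SD, n = 3), a log2 fold change of 0.80 ± 0.17 (SE, adjusted p = 0.0151 by edgeR). DTX4, a Deltex ubiquitin ligase, and AAK1, a kinase that acts on NUMB, had log2 fold changes of 1.26 and 1.14 (edgeR adjusted p = 0.0153 and 0.0218). FBXW7, which marks the Notch intracellular part for degradation, had a log2 fold change of -0.79 (adjusted p = 0.0311 by edgeR). Each of these 4 calls was lost in 2 or more of the 6 fits that left out a library, and all 4 were lost with replicates 2 and 3 summed.

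Among other HES relatives and targets, 4 were tested and 0 passed after adjustment in edgeR without a block, which called 18.3% of all genes. At an unadjusted p under 0.05, 1 was higher and 1 lower in edgeR, and DESeq2 called 1 lower. With the replicate block EFNB2 and SNAI2 were higher and HES6 was lower, in a fit where 31.1% of all genes were higher and 29.0% lower. HES6, a HES relative that is not a typical Notch target, was at 2.20 ± 1.18 CPM with PDGF against 7.80 ± 5.11 CPM without (SD, n = 3), with overlapping libraries and a log2 fold change of -1.82 (adjusted p = 0.0782 by edgeR). NRARP, a Notch target that feeds back on the pathway, had 9 counts over the PDGF-treated and 23 over the PDGF-free libraries, or a ratio of 0.314 (exact 95% interval 0.128 to 0.704, for counting error only). Its counts were 3, 3 and 3 with PDGF and 1, 9 and 13 without, and the groups overlapped. HES4 had 4 and 15 counts, all 15 in PDGF-free replicate 2.

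**Figure D4:**
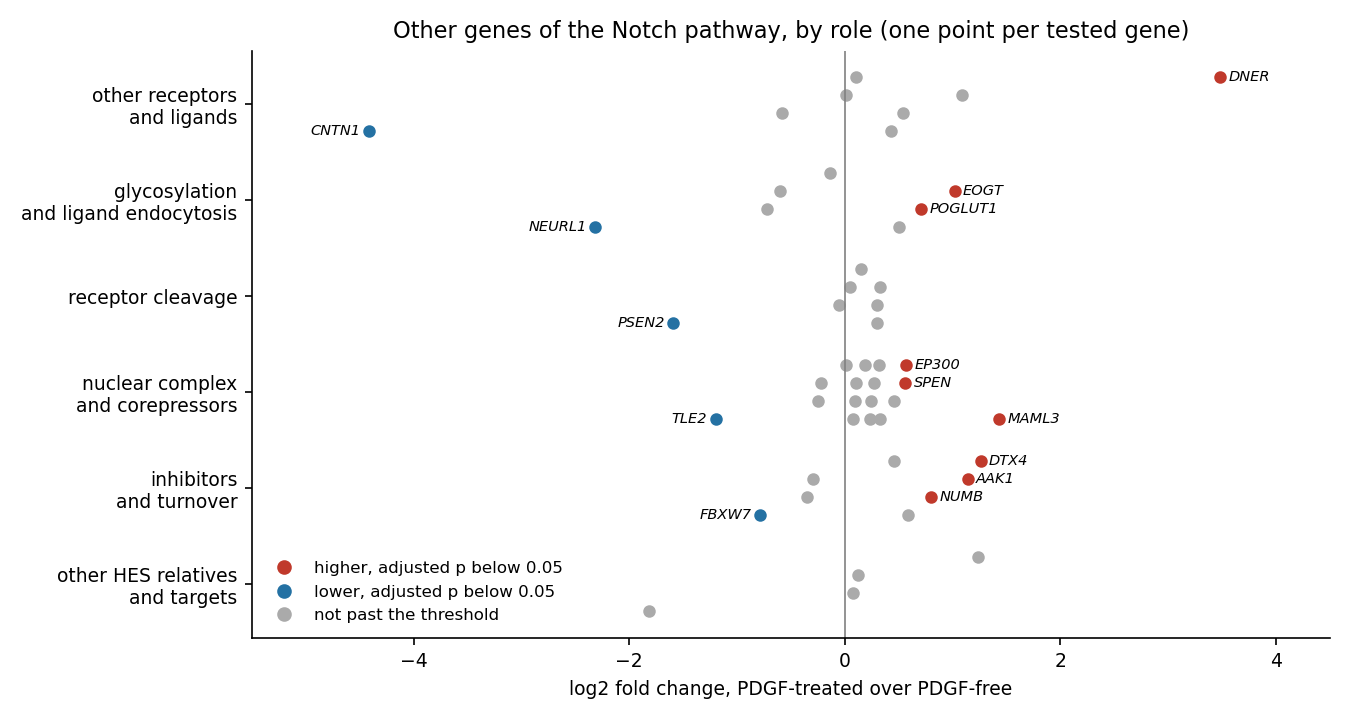
Log2 fold change of PDGF-treated over PDGF-free libraries for the 51 tested Notch pathway genes outside the chosen 10, grouped by role; each point is a gene, coloured where edgeR's adjusted p was under 0.05, and vertical offsets only separate points. DNER (3.48) and CNTN1 (-4.42) lie at the ends, and the median of all 51 is 0.19.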

How the data were processed

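The authors counted reads per gene and deposited a table for 6 libraries without normalization, treated here as estimated counts, since 34 values of 13 genes are not whole. They were rounded, while the plan had assumed whole counts. None of the Notch values was affected. The submitters' processing notes list fastp, HISAT2 2.1.0, SAMtools, featureCounts 2.0.1 and the builds Mmul_10 and Mmul_8.0.1, without roles; strand and annotation are not given in the sources used here. Of 2686 LOC identifiers, 2682 occur in release 103 of the NCBI RefSeq annotation of Mmul_10. It gave positions, lengths, GC content and promoter windows, and 17389 of all names in the table matched.

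Groups, replicate numbers and batches came from the labels. Genes were fitted with edgeR 4.0.16 (TMM, filterByExpr, quasi-likelihood test without a block, adjusted p under 0.05 by Benjamini-Hochberg over all genes tested) in R 4.3.3. The standard error (SE) was obtained from the F statistic, as |log2 fold change| over its square root. Differences within a batch used 0.5 added counts, and profiles 0.5 added CPM. The 10 genes, the pathway and marker lists and the promoter motifs were chosen with earlier results of these data known. The text names all 10 genes, called genes of the pathway lists, and others for a role; uncalled genes named there were chosen after their values were seen. Deviations of same-numbered libraries from their group means correlated with r = 0.698, 0.318 and 0.338 over 11539 genes, so the numbers were taken as pairing libraries by batch. Replicates 2 and 3, crossed, correlated as well (r = 0.354 and 0.328), so within batch 2 the numbers pair nothing beyond the batch. Depth was 10593805 to 14102697 counts per library, and intervals cover counting error only. Alternatives used DESeq2 1.42.0, limma 3.58.1 (voom), other factors, filters and thresholds, a replicate block, batch terms, summed replicates and left-out libraries. The steps were tested on simulated counts.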

Additional observations from a re-analysis of the deposited data

How the results depend on the processing

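None of the 6 tested genes changed direction under any of the 19 alternatives; directions of the other pathway genes were not compared across them. HEY1 and JAG1 kept their calls under every alternative, so 2 or 3 of the 6 tested genes were lower throughout. The number that were higher (2) fell to 1 when every library needed 10 counts or more, with limma-voom and with an adjusted p under 0.01, to 0 in edgeR with replicates 2 and 3 summed (2 at an unadjusted p under 0.05; 2 in DESeq2 and 1 in limma-voom with all libraries), and ranged from 0 (without PDGF-treated replicate 2, 2 at an unadjusted p under 0.05) to 2 with a library left out. For the other Notch pathway genes, 9 higher and 5 lower became 24 and 12 with the replicate block, 26 and 10 with the block and a GC content and length correction, 24 and 12 with a batch term, and 21 and 12 in batch 2 alone. With an adjusted p under 0.01, 2 were higher. With replicates 2 and 3 summed 1 was higher and 3 were lower, or 24 and 11 with a batch term added, a setting chosen after seeing the data. With a library left out, the counts ranged from 3 to 10 higher and from 4 to 8 lower. The fits with a replicate block also called NOTCH3 and JAG2, and changed no other call of the 6 genes. JAG2 was called under 8 alternatives in all, upper quartile factors and DESeq2 included. The correction for GC content and length moved the share of higher calls over all genes from 51.7% to 62.2%. Over all genes, the 878 higher and 1230 lower calls became 3587 and 3347 with the block, 4228 and 2566 with the correction, 3604 and 3387 with the batch term, 3041 and 3085 in batch 2 alone, 358 and 544 at an adjusted p under 0.01, 1419 and 1693 at 0.1, 206 and 487 with replicates summed (3669 and 3420 with a batch term), and 435 to 1284 and 726 to 1726 with a library left out. Why these settings change the counts was not tested. Depth limits JAG2 and DLL4, which had at most 45 counts in a library.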
